A study of Mus musculus with 2 samples.

Results

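*Cxcl12*, *Cxcr4* and *Ackr3*, a chemokine and its receptors, were followed in single-cell transcriptomes of mouse lung from 1 normoxia library and 1 library from mice kept in hypoxia for 3 weeks. They are 3 of the 31053 gene rows in each matrix, and were selected on values of these same libraries, with results for EC-like cells and for cells with *Ntrk2* already known, so the levels below are a description. The mice were of the C57/B6 strain, 2 to 4 months old, with no transgene or treatment other than the oxygen level given for these libraries. Lung suspensions of both groups were depleted of CD45+ leukocytes and CD326+ epithelial cells with magnetic beads before 10x Chromium 3′ capture, a method that tags every molecule with a unique molecular identifier (UMI). How many animals each library pools is not given with the matrices, and with 1 library per condition no test between conditions was possible.

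CXCL12, also called SDF1, is a chemokine made by stromal and endothelial cells that attracts and retains cells carrying its receptor. CXCR4 is the signalling receptor, coupled to inhibitory G proteins, and is the target of the antagonist AMD3100. ACKR3, also called CXCR7, binds the same ligand without classical G protein signalling, recruits β-arrestin and removes CXCL12 from the surroundings, and so shapes the gradient that CXCR4-bearing cells meet. In the lung the axis is known for signalling between endothelial cells (ECs) and mural cells, the pericytes and smooth muscle cells on the vessel wall.

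On the GRCm38 build (mm10), GENCODE places *Cxcl12* (ENSMUSG00000061353) on the plus strand at chr6:117168535-117181367, *Cxcr4* (ENSMUSG00000045382) on the minus strand at chr1:128588199-128592293, and *Ackr3* (ENSMUSG00000044337) on the plus strand at chr1:90203980-90216751. The annotation holds 3 protein-coding transcripts of *Cxcl12*, 2 of *Cxcr4* and 2 of *Ackr3*, and counts of 3′ ends summed per gene do not separate them. The promoters are shown because the libraries differ in oxygen, and the core of the hypoxia response element, bound by the hypoxia-inducible factors, is a short motif. They are RefSeq sequences of GRCm38.p6, each 300 bases from 250 before to 50 after the start, 5′ to 3′ on the gene's strand, with capitals for each match to ACGTG or GCGTG on either strand. The windows are chr6:117168285-117168584 for *Cxcl12*, chr1:128592250-128592549 for *Cxcr4* and chr1:90203730-90204029 for *Ackr3*.
Cxcl12: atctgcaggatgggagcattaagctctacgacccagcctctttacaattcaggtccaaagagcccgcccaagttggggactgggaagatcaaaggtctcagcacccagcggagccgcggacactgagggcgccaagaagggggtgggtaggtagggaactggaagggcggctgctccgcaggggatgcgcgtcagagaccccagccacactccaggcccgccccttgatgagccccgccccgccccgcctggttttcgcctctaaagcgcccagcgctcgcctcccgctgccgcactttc
Cxcr4: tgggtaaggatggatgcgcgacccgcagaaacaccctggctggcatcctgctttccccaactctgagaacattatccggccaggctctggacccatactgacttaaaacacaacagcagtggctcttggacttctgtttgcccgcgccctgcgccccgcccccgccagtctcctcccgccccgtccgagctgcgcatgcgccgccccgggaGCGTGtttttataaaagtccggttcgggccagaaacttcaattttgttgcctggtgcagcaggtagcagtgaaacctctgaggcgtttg
Ackr3: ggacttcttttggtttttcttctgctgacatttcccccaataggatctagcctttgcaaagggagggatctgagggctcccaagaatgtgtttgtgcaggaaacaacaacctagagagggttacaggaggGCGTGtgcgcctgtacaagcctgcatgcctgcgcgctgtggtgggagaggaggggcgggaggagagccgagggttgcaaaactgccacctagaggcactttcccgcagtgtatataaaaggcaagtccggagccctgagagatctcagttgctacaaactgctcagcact
The *Cxcr4* window held 1 match, GCGTG, starting 39 bases before the start, and the *Ackr3* window held 1 match, also GCGTG, 120 bases before it. The *Cxcl12* window held 0 matches. Of 32851 promoter windows of this length, 43.8% held at least 1 match, so a match or its lack in these windows is common and is given as a description of the letters only.

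The normoxia library held 2223 cells with 7630683 UMIs and the hypoxia library 809 cells with 2685345 UMIs, and 1 cell barcode was shared between them. A cell was kept if it had between 200 and 4000 detected genes and no more than 5% of UMIs from mitochondrial genes, which left 1348 cells in normoxia and 689 in hypoxia, with medians of 3453 and 2224 UMIs. The limit on mitochondrial UMIs was exceeded by 37.6% of normoxia and 13.2% of hypoxia cells, and the part of this gap in the results was not tested beyond the values given at the end for the cells left out. Each kept cell was placed in a gate by counting detected markers out of 6 per cell type. None of the 3 genes, nor *Ntrk2*, was a marker. The EC-like gate held 948 normoxia and 556 hypoxia cells with medians of 3665 and 2962.5 UMIs, and a median of 6 of 6 EC markers in each library. Within it, 639 and 308 cells were like general capillary cells (gCap), 120 and 57 like aerocytes, the alveolar capillary cells also called aCap, 17 and 22 arterial-like, 60 and 24 venous-like, 9 and 2 lymphatic-like, and 103 and 143 had no subtype. Of the gCap-like cells, 169 in normoxia and 164 in hypoxia sat at the minimum of the gate, so its border weighed more in hypoxia. Their medians of gCap, arterial and venous markers were 4, 1 and 0 in normoxia and 3, 2 and 1 in hypoxia. The part of this shift in the gCap-like ratios was not tested. Of the venous-like cells 15 and 8 sat there, with medians of 5 and 4 venous markers and of 3 gCap markers in both libraries. Of the arterial-like cells 11 and 17 sat there. The fibroblast-like gate held 124 and 14 cells, all but 6 of them with alveolar fibroblast markers, the pericyte-like gate 22 and 1, and the leukocyte-like gate 14 and 3. The single hypoxia pericyte-like cell allows no statement on pericytes in hypoxia. Levels (CPM) are the UMIs of a gene in a gate for every 1000000 UMIs of that gate, followed by an exact Poisson 95% interval in brackets. Ratios carry exact conditional binomial 95% intervals. A ratio divided by another ratio carries a 95% Wald interval on the log scale instead. All of these intervals cover counting error only.

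**Figure D1:**
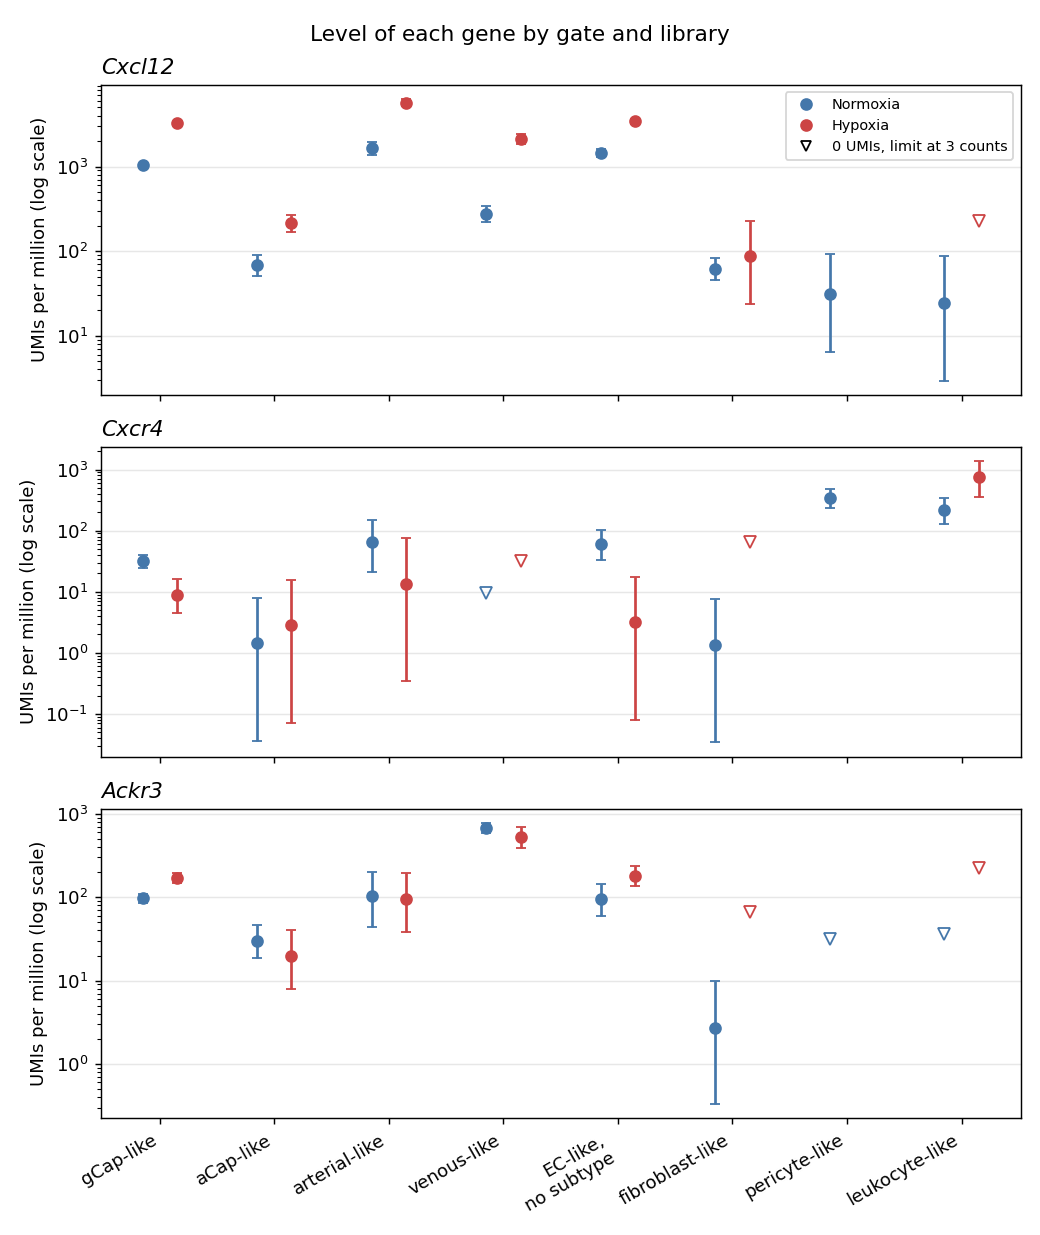
Level of *Cxcl12*, *Cxcr4* and *Ackr3* (CPM on a log scale, with different ranges in the 3 panels) in each gate with at least 3 cells, in normoxia (blue) and hypoxia (red). Points are levels with exact Poisson 95% intervals, and open triangles mark gates with 0 UMIs at the level of 3 counts. *Cxcl12* was highest in arterial-like, gCap-like and subtype-free EC-like cells, *Cxcr4* in pericyte-like and leukocyte-like cells, and *Ackr3* in venous-like cells.

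The ligand was most abundant in endothelial cells. In EC-like cells *Cxcl12* stood at 819 CPM in normoxia (790.5 to 849, 3020 UMIs) and at 2795 CPM in hypoxia (2723 to 2868, 5788 UMIs), a hypoxia/normoxia ratio of 3.41 (3.26 to 3.56). In fibroblast-like cells it stood at 62.1 CPM in normoxia (45.5 to 82.9, 46 UMIs) and 87.8 CPM in hypoxia (23.9 to 225, 4 UMIs), and this ratio of 1.41 had an interval from 0.369 to 3.87. In pericyte-like cells of normoxia only 3 *Cxcl12* UMIs were found, 31.4 CPM (6.48 to 91.8), and in leukocyte-like cells 2 UMIs, 24.4 CPM (2.96 to 88.3). EC markers summed in the same normoxia cells were at 0.957% of their EC-like level in fibroblast-like cells, where *Cxcl12* was at 7.58% of its EC-like level. In pericyte-like cells the 2 shares were close, 3.22% for EC markers and 3.83% for *Cxcl12*, and in the 24 cells like alveolar type 1 cells (AT1) they were 4.73% and 4.37%. Read at the EC-like ratio to those markers, *Cxcl12* would stand at 7.84 CPM in fibroblast-like cells, where the interval found was 45.5 to 82.9. In pericyte-like cells it would stand at 26.3 CPM, where the interval was 6.48 to 91.8 from 3 UMIs. The source of the *Cxcl12* UMIs outside the EC-like gate was not tested. In the 14 hypoxia fibroblast-like cells EC markers were at 3.70% and *Cxcl12* at 3.14% of the EC-like level, and the same reading gives 103 CPM against the 87.8 CPM found, within its interval.

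Among EC-like subtypes, *Cxcl12* in normoxia was highest in arterial-like cells, at 1663 CPM (1389 to 1976), followed by EC-like cells without a subtype at 1435 CPM (1285 to 1598), whose interval overlapped the arterial one. General capillary-like cells stood at 1039 CPM (998 to 1081), venous-like cells at 276 CPM (221 to 341) and aCap-like cells at 68.6 CPM (50.6 to 91.0). The 9 lymphatic-like cells held 9 UMIs, 238 CPM (109 to 453), which overlapped the venous-like level. The aCap-like level did not differ from that of fibroblast-like cells beyond counting error, with a ratio of 1.10 (0.721 to 1.69). Capillary cells were thus split. *Cxcl12* was 15.1-fold higher in gCap-like than in aCap-like cells in normoxia (11.4 to 20.6) and 15.1-fold higher in hypoxia (12.0 to 19.2). These folds and the ratio to fibroblast-like cells include 1 normoxia aCap-like cell with 50% of the 48 UMIs of its gate. Without the highest cell of each gate, the gCap-like and aCap-like levels were 1009 and 34.5 CPM in normoxia. In hypoxia they were 3216 and 177 CPM.

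In hypoxia every EC-like subtype with at least 17 cells had more *Cxcl12*. Arterial-like cells reached 5718 CPM (5187 to 6288), gCap-like cells 3257 CPM (3157 to 3359), venous-like cells 2116 CPM (1831 to 2432) and aCap-like cells 216 CPM (170 to 271). The hypoxia/normoxia ratios were 3.44 in arterial-like cells (2.82 to 4.22), 3.13 in gCap-like cells (2.98 to 3.30) and 3.15 in aCap-like cells (2.17 to 4.62), and these 3 intervals overlapped. EC-like cells without a subtype went from 1435 to 3424 CPM (3223 to 3635), a ratio of 2.39 (2.11 to 2.71). Under the limits used here, venous-like cells had the highest ratio, 7.65 (5.92 to 9.97), from 87 UMIs in 60 cells to 198 UMIs in 24 cells. It was 2.44 times the gCap-like ratio (1.89 to 3.16), and with it the gap between the gates narrowed, from 3.76-fold higher in gCap-like cells in normoxia (3.04 to 4.71) to 1.54-fold in hypoxia (1.33 to 1.78). Hypoxia venous-like cells had a median of 4 venous and 3 gCap markers, and the part of this gate border in the venous-like ratio was not tested. Weighting the 4 blood vessel subtypes by their normoxia mix gave 784 CPM for normoxia and 2585 CPM for hypoxia, with a ratio of 3.30. This value leaves out the lymphatic-like cells and the 103 and 143 cells without a subtype, so it is not over the same cells as the EC-like ratio, and the part of the subtype mix in that ratio was not tested.

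A few cells weighed on the smaller gates. In aCap-like cells of normoxia 50% of the 48 *Cxcl12* UMIs came from 1 cell, and without the highest cell of each library the ratio was 5.13 (3.15 to 8.61). The aCap-like ratio was 7.08 (5.21 to 9.81) with an upper limit of 6000 detected genes, and the arterial-like ratio 4.37 (3.59 to 5.36). Both of these aCap-like intervals overlapped the venous-like interval at the same setting, so no order of the aCap-like and venous-like ratios is read there. In arterial-like cells 1 cell held 25.6% of the *Cxcl12* UMIs in normoxia, and 1 cell held 23.3% in hypoxia. Without the highest cell of each library the arterial-like levels were 1336 and 4652 CPM, with a ratio of 3.48 (2.77 to 4.42). Leaving out the highest cell of each library left the venous-like ratio at 7.56 (5.74 to 10.0) and the gCap-like ratio at 3.19 (3.03 to 3.36).

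**Figure D2:**
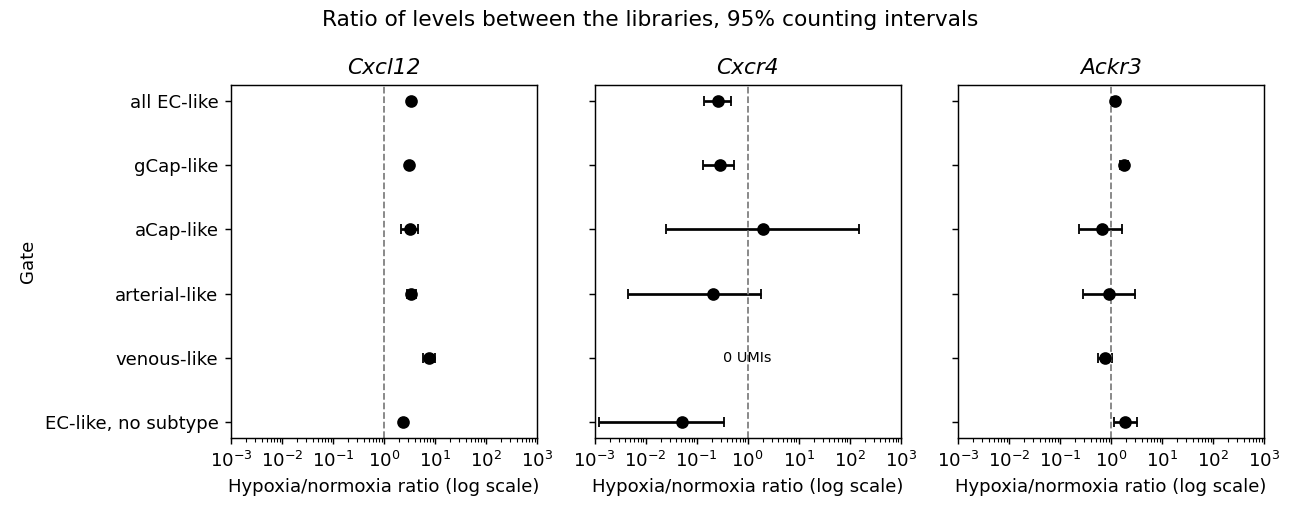
Hypoxia/normoxia ratio of the level (log scale) of each gene in all EC-like cells and in each EC-like subtype, with exact 95% counting intervals. The dashed line marks equal levels. The *Cxcl12* intervals lie to the right of the line in every gate shown, and the *Cxcr4* intervals lie to the left in all EC-like, gCap-like and subtype-free cells. The *Ackr3* intervals lie to the right in all EC-like, gCap-like and subtype-free cells. In venous-like cells *Ackr3* is to the left, with an interval that includes 1.

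Set against all genes with at least 50 UMIs in a gate, the ratio of *Cxcl12* ranked 39 from the highest of 8797 genes in EC-like cells and 46 of 7526 in gCap-like cells. It ranked 19 of 3703 in aCap-like cells and 3 of 1458 in venous-like cells. In EC-like cells 7.74% of genes were at least 1.5-fold higher in hypoxia, 1 of the 3 genes described here among them (*Cxcl12*), and 9.2% were at least 1.5-fold lower, again 1 of the 3 (*Cxcr4*). In gCap-like cells 10.4% of genes were that much higher, including *Cxcl12* and *Ackr3*, and 9.29% that much lower, including *Cxcr4*. In aCap-like cells, where *Cxcl12* alone of the 3 reached 50 UMIs and was higher, the shares were 8.59% higher and 10.9% lower. In venous-like cells *Cxcl12* and *Ackr3* reached 50 UMIs, *Cxcl12* was among the 14.7% that were higher, and neither was among the 16.2% that were lower. The genes were selected on these contrasts, so nothing is read from these counts. Scaling by the median ratio of all genes instead of the total shifted log2 ratios by 0.06 in EC-like, 0.09 in gCap-like and aCap-like, 0.04 in arterial-like and 0.15 in venous-like cells, toward lower values in hypoxia.

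Detection per cell was compared after each cell had been thinned to 1000 UMIs, which left out 106 normoxia and 79 hypoxia EC-like cells with fewer. *Cxcl12* was found in 331 of 842 thinned EC-like cells in normoxia (39.3%, exact Clopper-Pearson 95% interval 36.0 to 42.7) and in 363 of 477 in hypoxia (76.1%, 72.0 to 79.9). Before thinning the shares were 59.0% and 86.0%. For comparison, 0 of 13 thinned leukocyte-like cells of normoxia had a *Cxcl12* UMI, which allows up to 24.7%, and 4 of 116 fibroblast-like cells did (3.45%, 0.947 to 8.59). Leukocyte-like and fibroblast-like cells of normoxia had medians of 4136 and 5992 UMIs before thinning, so neither gate was shallower than the EC-like cells. In hypoxia 0 of 12 thinned fibroblast-like cells had a *Cxcl12* UMI, which allows up to 26.5%, above the 16.7% found in hypoxia aCap-like cells.

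Both the share of cells and the UMIs per cell with *Cxcl12* were higher in hypoxia. In gCap-like cells 54.8% had 0 UMIs in normoxia and 16.4% in hypoxia, while cells with 5 or more UMIs went from 4.41% to 21.6%. The share with a UMI went from 45.2% to 83.6% in gCap-like cells, from 27.6% to 82.6% in venous-like cells, from 60% to 85% in arterial-like cells and from 7.21% (3.16 to 13.7) to 16.7% (7.92 to 29.3) in aCap-like cells. The last 2 intervals overlapped and none was computed for the difference of 9.46 points, so no difference in share is read in aerocyte-like cells.

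**Figure D3:**
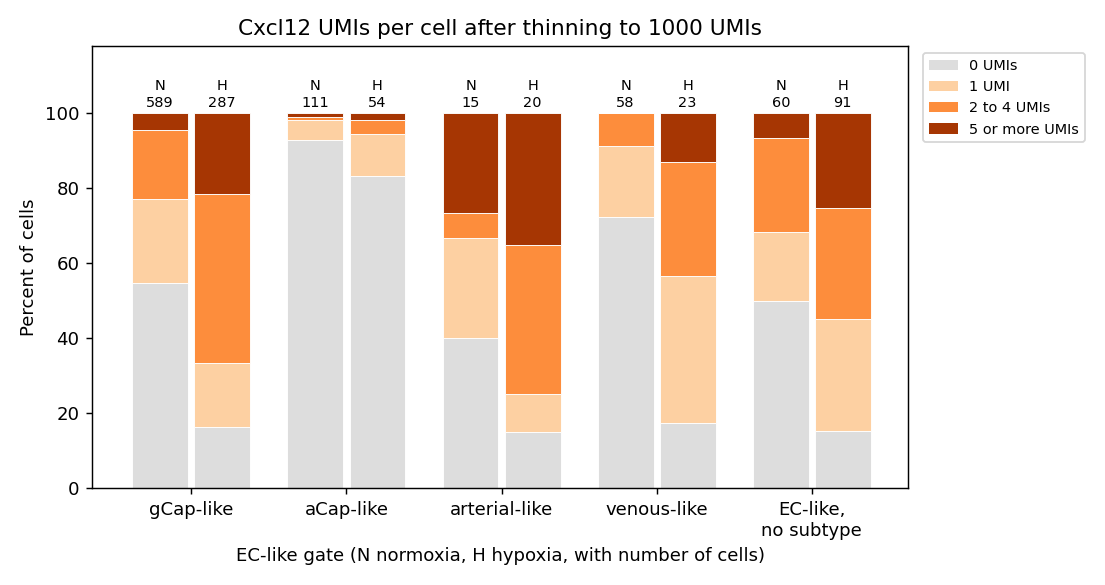
Percent of cells with 0, 1, 2 to 4 and 5 or more *Cxcl12* UMIs after thinning each cell to 1000 UMIs, by EC-like gate and library, with the number of cells above each bar. The grey part with 0 UMIs is smaller in hypoxia in all 5 gates and makes up most of both aCap-like bars.

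The signalling receptor had another pattern. *Cxcr4* stood at 345 CPM in pericyte-like cells of normoxia (238 to 485), with 33 UMIs spread over 12 of 22 cells and at most 6 in 1 cell. Leukocyte-like cells of normoxia, the cells in which CXCR4 is best known, stood at 220 CPM (130 to 348) with 18 UMIs in 6 of 14 cells. These 2 levels did not differ beyond counting error, with a pericyte/leukocyte ratio of 1.57 (0.859 to 2.96). EC-like cells of the same library stood at 25.2 CPM (20.4 to 30.9), 13.7-fold lower than pericyte-like cells (8.91 to 20.6), and fibroblast-like cells held 1 UMI in 124 cells. The 12 pericyte-like cells with *Cxcr4* held 0 UMIs of the 6 leukocyte markers and a median of 6 of 6 pericyte markers. Their EC markers summed to 273 CPM, against 571 CPM in the 10 pericyte-like cells without *Cxcr4*. Those 10 cells also held 0 leukocyte marker UMIs. Fibroblast markers summed to 1253 CPM in the cells with *Cxcr4* and 1052 CPM in those without, at medians of 5004 and 3336.5 UMIs per cell. Thinned to 1000 UMIs, 5 of 19 pericyte-like cells had a *Cxcr4* UMI (26.3%, 9.15 to 51.2), against 19 of 842 EC-like cells (2.26%) and 0 of 116 fibroblast-like cells.

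The pericyte-like result rested on few cells and on the gate. Of the 22 cells of normoxia 11 sat at its minimum, with medians of 5 pericyte, 2 fibroblast and 2 smooth muscle markers over the gate. With pericyte-like cells taken instead by at least 2 of 4 markers, 29 cells held 30 *Cxcr4* UMIs in 11 cells, 233 CPM (157 to 333). In hypoxia the single pericyte-like cell held 1 *Cxcr4* UMI and 1 *Ackr3* UMI, from which no level can be read.

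Within the endothelium *Cxcr4* was sparse and lower in hypoxia. EC-like cells held 93 UMIs in normoxia, 25.2 CPM, and 14 UMIs in hypoxia, 6.76 CPM (3.70 to 11.3), a ratio of 0.268 (0.141 to 0.472) that ranked 74 from the lowest of 8797 genes. Most of these UMIs lay in gCap-like cells, 73 in normoxia at 31.4 CPM (24.6 to 39.5) and 11 in hypoxia at 8.94 CPM (4.46 to 16.0), a ratio of 0.285 (0.136 to 0.540). EC-like cells without a subtype held 14 and 1 UMIs, 60.5 and 3.17 CPM, and arterial-like cells 5 and 1, 64.5 and 13.5 CPM. In aCap-like cells 1 UMI was found in each library. Venous-like cells held 0 UMIs in both, which allows 9.53 CPM in normoxia and 32.1 CPM in hypoxia at 3 counts. The venous limit in normoxia was below the gCap-like level of that library, whereas the limit in hypoxia was above it, so at this depth a difference between these gates in hypoxia was not detectable.

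As shares, 59 of 948 EC-like cells had a *Cxcr4* UMI in normoxia (6.22%, 4.77 to 7.95) and 12 of 556 in hypoxia (2.16%, 1.12 to 3.74). Fibroblast-like cells, used as the background, had 1 of 124 (0.806%, 0.0204 to 4.41), an interval that includes the hypoxia share. The 59 normoxia EC-like cells with *Cxcr4* carried a median of 6 EC markers and 8 leukocyte marker UMIs in all, 30.8 CPM, against 15.8 CPM in those without it. Leukocyte-like cells had leukocyte markers at 6898 CPM in the 6 cells with *Cxcr4*. After thinning, the EC-like shares were 2.26% (1.36 to 3.50) in normoxia and 1.05% (0.341 to 2.43) in hypoxia. These intervals overlapped and none was computed for the difference of −1.21 points, so no lower share is read at matched depth.

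*Ackr3*, the atypical receptor, was most abundant in venous-like cells. In normoxia it stood at 683 CPM there (595 to 781, 215 UMIs), against 103 CPM in arterial-like (44.5 to 203), 97.2 CPM in gCap-like (85.0 to 111), 95.1 CPM in subtype-free (59.6 to 144) and 30.0 CPM in aCap-like cells (18.6 to 45.9). The arterial-like, gCap-like and subtype-free levels overlapped. Pericyte-like cells of normoxia held 0 *Ackr3* UMIs, which allows 31.4 CPM at 3 counts, and leukocyte-like cells held 0, which allows 36.7 CPM. Fibroblast-like cells of normoxia held 2 UMIs in 124 cells, 2.70 CPM (0.327 to 9.76). Both UMIs lay in the 6 cells outside the alveolar fibroblast group, at 79.1 CPM (9.58 to 286), an interval that includes the gCap-like level. The alveolar fibroblast group held 0, which allows 4.20 CPM at 3 counts. With the 4-marker pericyte gate 1 *Ackr3* UMI was found in 29 cells. Both receptors were found in gCap-like cells of normoxia, with 226 UMIs of *Ackr3* and 73 of *Cxcr4*, and in arterial-like cells, with 8 and 5.

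Between the libraries the ratio of *Ackr3* differed by subtype. In EC-like cells without a subtype *Ackr3* went from 95.1 to 181 CPM, with 22 and 57 UMIs, a ratio of 1.90 (1.14 to 3.27). In gCap-like cells *Ackr3* went from 97.2 CPM to 172 CPM (150 to 197), a ratio of 1.77 (1.46 to 2.15). Thinned gCap-like cells with a UMI went from 8.49% (6.37 to 11.0) to 13.2% (9.54 to 17.7). These 2 intervals overlapped, which does not decide a difference, and none was computed for the difference of 4.75 points. In venous-like cells *Ackr3* stood at 683 CPM and, in hypoxia, at 524 CPM (387 to 692, 49 UMIs), a ratio of 0.767 (0.550 to 1.05). The thinned share of venous-like cells with a UMI was 27.6% (16.7 to 40.9) in normoxia and 30.4% (13.2 to 52.9) in hypoxia, so no order is read from it. In hypoxia 32.7% of the venous-like UMIs came from 1 cell, and without the highest cell of each library the levels were 646 and 388 CPM and the ratio 0.600 (0.402 to 0.870). The venous-like ratio was 0.691 (0.496 to 0.947) under median scaling. Before thinning 73.3% of venous-like cells had a UMI in normoxia and 45.8% in hypoxia, at medians of 4951.5 and 3167.5 UMIs per cell. The part of the venous-like gate border in these values was not tested, nor was that of the gCap-like gate border in the gCap-like values. Set against the gCap-like ratio, the venous-like ratio was 0.433-fold (0.301 to 0.622), and the excess of venous-like over gCap-like cells went from 7.02-fold in normoxia to 3.04-fold in hypoxia. The aCap-like level was 30.0 and 19.9 CPM, with 21 and 7 UMIs, and the arterial-like level 103 and 94.2 CPM, with 8 and 7 UMIs, and both ratios had intervals that included 1 and lay above 1 in some of the alternatives. Over all EC-like cells *Ackr3* went from 134 to 160 CPM, a ratio of 1.20 (1.04 to 1.38), which under median scaling was 1.15 (0.997 to 1.32).

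*Ntrk2*, which encodes the neurotrophin receptor TrkB, stood at 32.6 CPM in EC-like cells of normoxia and 802 CPM in hypoxia. In thinned hypoxia EC-like cells, *Cxcl12* was found in 207 of 247 cells with an *Ntrk2* UMI (83.8%, 78.6 to 88.2) and in 156 of 230 cells without (67.8%, 61.4 to 73.8), a difference of 16.0 percentage points with a Newcombe 95% interval from 8.33 to 23.5. In normoxia EC-like cells it was found in 20 of 27 with and 311 of 815 without, a difference of 35.9 points (16.9 to 49.1). Cells of 1 library share their source, and these intervals cover counting error only. Within the subtypes of hypoxia the differences had intervals that overlapped each other. In hypoxia gCap-like cells *Cxcl12* was found in 143 of 167 cells with *Ntrk2* (85.6%) and 97 of 120 without (80.8%), a difference of 4.80 points (−3.81 to 13.9). In aCap-like cells it was found in 3 of 9 with and 6 of 45 without, a difference of 20 points (−4.85 to 52.0), and in venous-like cells in 4 of 6 and 15 of 17, a difference of −21.6 points (−59.2 to 11.1). In arterial-like cells *Cxcl12* was found in 12 of 14 with and 5 of 6 without, a difference of 2.38 points (−26.7 to 43.4). In EC-like cells without a subtype it was found in 45 of 51 and 32 of 40, a difference of 8.24 points (−6.77 to 24.3). All of these subtype intervals included 0. The subtypes themselves differed in *Ntrk2*, which was found in 167 of 287 gCap-like cells and in 9 of 54 aCap-like cells, the EC-like gate lowest in *Cxcl12*. The part of the subtype mix in the difference of 16.0 points was not tested.

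*Cxcl12* was also read by the number of *Ntrk2* UMIs left in a cell after thinning. Among gCap-like cells with 0 of them, 44.1% had *Cxcl12* in normoxia (40.0 to 48.3, 567 cells) and 80.8% in hypoxia (72.6 to 87.4, 120 cells). Of those 120 hypoxia cells 81 had held *Ntrk2* before thinning, and only 51 of all 308 hypoxia gCap-like cells held none. In these 51 cells *Cxcl12* stood at 1955 CPM, against 902 CPM in the 572 such cells of normoxia, a ratio of 2.17 (1.86 to 2.51), below the ratio of 3.13 over all gCap-like cells. The cells without *Ntrk2* in hypoxia were shallower, with a median of 1508 UMIs against 3526.5 in normoxia. Thinned, 28 of 39 of them had *Cxcl12* (71.8%, 55.1 to 85.0), against 220 of 522 in normoxia (42.1%, 37.9 to 46.5). By thinned class, the mean in the hypoxia gCap-like cells was 2.84 *Cxcl12* UMIs per 1000 with 0 *Ntrk2* UMIs, 2.89 with 1, 3.46 with 2 and 2.97 with 3 or more, and the counting intervals of these 4 means overlapped. In normoxia *Ntrk2* was rare, and 16 of the 22 gCap-like cells with it had *Cxcl12* (72.7%, 49.8 to 89.3), against 250 of 567 without, a difference of 28.6 points (7.36 to 43.3).

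**Figure D4:**
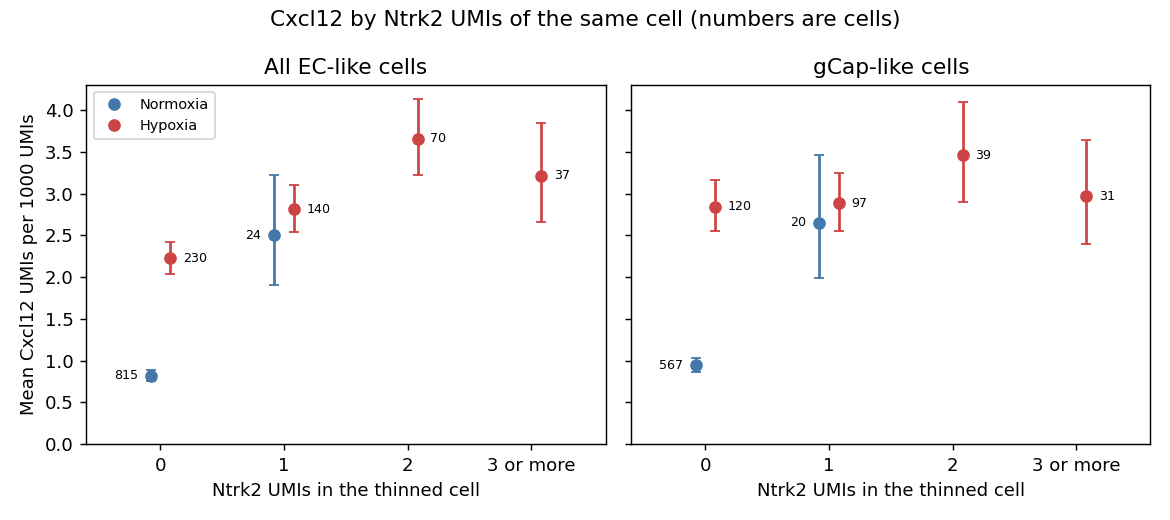
Mean *Cxcl12* UMIs per 1000 UMIs (y axis) in cells with 0, 1, 2 and 3 or more *Ntrk2* UMIs after thinning to 1000 UMIs (x axis), in all EC-like cells (left) and gCap-like cells (right), normoxia blue and hypoxia red, with exact Poisson 95% intervals and the number of cells beside each point. Classes with fewer than 5 cells are left out. In gCap-like cells of hypoxia the 4 means lie between 2.84 and 3.46, above the normoxia mean of cells with 0 *Ntrk2* UMIs after thinning. The 20 normoxia gCap-like cells with 1 *Ntrk2* UMI have a mean of 2.65 (1.99 to 3.47), an interval that overlaps those of all 4 hypoxia means.

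For the receptors the interval of the difference included 0. *Ackr3* was found in 30 of 247 hypoxia EC-like cells with *Ntrk2* (12.1%) and in 30 of 230 without (13.0%), a difference of −0.90 points (−6.98 to 5.09) whose sign changed with the thinning depth. *Cxcr4* was found in 4 and 1 of these cells, a difference of 1.18 points (−1.03 to 3.68). Among the members themselves, *Ackr3* was found in 50 of 363 hypoxia EC-like cells with *Cxcl12* (13.8%) and in 10 of 114 without (8.77%), a difference of 5.00 points (−2.34 to 10.6), and in normoxia in 27 of 331 (8.16%) and 49 of 511 (9.59%). *Cxcr4* was found in 2 of 363 hypoxia EC-like cells with *Cxcl12* and 3 of 114 without, a difference of −2.08 points (−6.92 to 0.169). All 5 of these cells were gCap-like, where it was found in 2 of 240 with and 3 of 47 without, a difference of −5.55 points (−16.3 to −0.84) that rests on 5 UMIs. In normoxia it was found in 7 of 331 and 12 of 511 EC-like cells, a difference of −0.23 points (−2.26 to 2.17). No thinned EC-like cell held both *Ackr3* and *Cxcr4*, with 19 *Cxcr4* cells in normoxia and 5 in hypoxia, too few to show a difference.

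Across the 12 combinations of gate and library with at least 20 cells, the genes whose level followed that of *Cxcl12* most closely by Pearson correlation of log2(CPM + 10) were *Mctp1* (r = 0.978), *H2-DMa* (0.974), *Wfdc1* (0.973), *H2-Ab1* (0.968) and *H2-Aa* (0.966), out of 8043 genes with at least 100 UMIs. Those closest to *Ackr3* were *Tmem252* (0.974), *Vegfc* (0.965), *Nos3* (0.948), *B3gnt3* (0.945) and *Tm6sf1* (0.943), of which *Vegfc* was itself a marker of the venous gate. Those closest to *Cxcr4* were *Prkacb* (0.921), *Postn* (0.911), *Gm26735* (0.888), *Zmym1* (0.875) and *Spp1* (0.868). *Cxcr4* stood at 345 CPM in the 22 pericyte-like cells of normoxia and at no more than 60.5 CPM in every other combination, so its correlations lean on that small gate. Leukocyte-like cells, with fewer than 20 cells in each library, were not among the combinations. Between members, *Cxcl12* had an r of 0.704 with *Ackr3* and −0.22 with *Cxcr4*, and of 0.901 with *Ntrk2*. These points share 2 libraries, some gates differ in depth, and the correlations are descriptions.

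Other genes of the pathway were read in EC-like cells from lists of 37 genes, of which *Cxcl11* was not analysed here and 25 had at least 20 UMIs. Of those 25, 3 were at least 1.5-fold higher in hypoxia and 8 at least 1.5-fold lower, with a median ratio of 0.993. Of all 10494 genes with at least 20 UMIs in these cells, 9.41% were that much higher and 12.1% that much lower, with a median ratio of 1.02. Of 10 transducers below the receptors, G protein subunits, β-arrestins and receptor kinases, 0 were higher and 2 lower, the kinases *Grk3* (0.477) and *Grk5* (0.543), and the next in size was the inhibitory G protein gene *Gnai1* at 1.35 (0.847 to 2.15). Of 3 proteases that trim CXCL12 or remodel matrix, *Dpp4* (0.540) and *Mmp2* (0.569) were lower and *Mmp14* stood at 0.910. *Mmp2* rested on 25 and 8 UMIs, and its interval (0.222 to 1.30) included 1. Of 5 other ligands or partners of the receptors, *Cd74* (4.80), a receptor component for MIF that also chaperones MHC class II, and *Mif* (1.53) were higher, and *Adm* (0.356), which ACKR3 can scavenge, and *Cxcl14* (0.569) were lower. *Cxcl14* also rested on 25 and 8 UMIs, with an interval (0.222 to 1.30) that included 1. Of 3 other CXC chemokines, *Cxcl9* went from 0 to 188 UMIs, all of them in 3 cells, *Cxcl16* had a ratio of 0.563 and *Cxcl10* of 1.12. The 24 *Cxcl10* UMIs of hypoxia all came from 1 cell, against 38 UMIs in 12 cells of normoxia. Of 2 other atypical receptors, *Ackr4* had a ratio of 0.187 and *Ackr2* of 1.38. The oxygen-regulated factors *Hif1a* (1.38, 1.13 to 1.70) and *Epas1* (0.694, 0.670 to 0.719) had ratios within 1.5-fold, with intervals that did not include 1. *Hif1a* was thus higher in hypoxia and *Epas1* lower, beyond counting error.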

How the data were processed

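The values are raw UMI counts as deposited, 1 for each gene in each cell, which the authors made with Cell Ranger (6.1.2 in the file header) on mm10, without normalization, for barcodes called as cells. Seurat is named in the submitters' processing notes. Markers (6 for each of 7 cell types and 5 EC subtypes) were counted as detected per cell. A gate needed at least 3 markers and 2 more than any other cell type, a subtype at least 2 and 1 more. Doublets were limited by the lead in markers and the limit of 4000 genes, with no caller. Intervals were computed with scipy 1.17.1 and numpy 2.4.6 in python 3.11.15, figures with matplotlib 3.10.9. The interval of a ratio was tested on simulated Poisson counts summed over cells. That setting leaves out the crowding of UMIs in single cells seen in these data. The members, lists and alternatives were chosen with earlier results of these data known. Named genes were the members, *Ntrk2*, the 5 genes most like each member, and in each pathway list up to 3 genes of largest ratio, with all others past 1.5-fold. The design foresaw no test with 1 library per condition.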

Additional observations from a re-analysis of the deposited data

Results flagged for a closer look

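*Cxcr4* lay on opposite sides of equality in 2 gates under the same contrast. The hypoxia/normoxia ratio was 0.285 in gCap-like cells and 3.41 (1.41 to 7.80) in leukocyte-like cells, and the difference was not tested. The leukocyte-like value rests on 3 hypoxia cells, with 9 of the 10 UMIs in 1 cell, against 14 normoxia cells with 18 UMIs, in suspensions depleted of CD45+ cells.

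A signal of *Cxcl12* was also found in EC-like cells that the limits had left out. In those over 5% mitochondrial UMIs, 442 in normoxia and 55 in hypoxia, *Cxcl12* went from 608 to 2136 CPM, a ratio of 3.51 (2.95 to 4.17). In the same cells 26 and 1 UMIs of *Cxcr4* and 51 and 5 UMIs of *Ackr3* were found. In those over 4000 detected genes, 8 in normoxia and 9 in hypoxia, *Cxcl12* went from 153 to 1080 CPM, a ratio of 7.08 (4.44 to 11.9).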

How the results depend on the processing

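Each of 24 results was computed again under the alternatives, 138 values in all. For 3 results whose intervals included no difference, 7 values fell on the other side of it. These were *Ackr3* in aCap-like cells (1.21 with 6000 genes), *Ackr3* in arterial-like cells (1.08 with no mitochondrial limit, 1.18 with 6000 genes, 1.05 as a mean over cells) and the *Ackr3* difference with *Ntrk2* (1.43 points at 500 UMIs, 0.989 with a 10% mitochondrial limit, and 8.80 at 2000 UMIs). The cause was not tested. The share of EC-like cells with *Cxcl12* depended on the thinning depth, at 24.8% in normoxia and 58.6% in hypoxia with 500 UMIs, and 51.4% and 85.6% with 2000. At 2000 UMIs the differences between EC-like cells with and without *Ntrk2* were 23.8 points for *Cxcl12* and 8.80 points (−0.58 to 16.8) for *Ackr3*. The *Cxcl12* ratio in EC-like cells was 3.04 as a mean over cells. The *Cxcr4* level in pericyte-like cells was 233 CPM with the 4-marker gate. The number of genes past 1.5-fold in EC-like cells was 1490, and 2261 with a minimum of 20 UMIs and 4215 with 1 UMI in each library. For the genes in single subtypes, 6 further values moved by more than their counting interval. Among them the gCap-like *Cxcl12* ratio was lower, at 2.95 under median scaling and 2.93 as a mean over cells. The arterial-like *Cxcl12* ratio was lower as a mean over cells, at 2.68. The others were the higher aCap-like and arterial-like *Cxcl12* ratios given above. Chosen after seeing the data, leaving out the highest cell, *Ntrk2* read before thinning, and the gCap-like difference with *Ntrk2* at other settings, which ran from 0.808 to 6.01 points, were added. No paired analysis was possible because there is a single library on each side, and none could be left out. Depth limits the values that rest on few UMIs, such as *Cxcr4* in hypoxia EC-like cells with 14, *Ackr3* in hypoxia aCap-like and arterial-like cells with 7 each and *Cxcl12* in hypoxia fibroblast-like cells with 4.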
